A study of Homo sapiens and Mus musculus with 33 samples.

Results

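Class I histone deacetylases include the enzymes that the drug MS275 (entinostat) inhibits. The 4 class I genes, HDAC1, HDAC2, HDAC3 and HDAC8, were taken by name from the RNA-seq tables, where they are 4 of 35805 human entries and, as Hdac1, Hdac2, Hdac3 and Hdac8, 4 of 25965 mouse entries. Every peak inside their gene intervals or within 2 kb of them was added. This gave 8 of the 40266 peaks of HCT116 cells, 7 of the 30338 H3K18cr peaks of mouse colon epithelium and 6 of its 27035 H3K4me3 peaks. The members were chosen by name and their peaks by position, while genes outside the members are named by rules that use measured values.

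Histone deacetylases remove acetyl groups from lysines of histone tails, and class I enzymes also take off longer acyl groups such as crotonyl. HDAC1 and HDAC2 are close paralogs that work inside the Sin3, NuRD, CoREST and MiDAC complexes, HDAC3 is the catalytic subunit of a separate nuclear corepressor complex, and HDAC8 works outside such complexes, with the cohesin subunit SMC3 among its substrates. MS275 is a benzamide that inhibits HDAC1, HDAC2 and HDAC3 and has little activity on HDAC8. H3K18cr and H3K18ac are the crotonylated and acetylated forms of lysine 18 of histone H3, and H3K4me3, trimethylated lysine 4, marks active promoters.

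HCT116 cells are an epithelial line derived from a human colorectal carcinoma. The cells received 5 µM MS275 or an equal amount of the solvent DMSO for 18 h, and were assayed by RNA-seq (4 libraries per treatment) and by ChIP-seq of H3K18cr and H3K18ac (3 libraries per mark and treatment, with 1 input library per treatment). Epithelium was stripped from the colons of male C57BL/6 mice for which no treatment is labelled and whose age is not given in the sources used here. It was assayed by RNA-seq (3 mice), H3K4me3 ChIP-seq (3 libraries, 1 input) and H3K18cr ChIP-seq (2 libraries, 2 inputs). Chromatin for H3K18cr was pooled from 3 colons before the ChIP experiments, so its libraries may share animals. The methods describe this pooling in a section on ChIP of both marks, so it may hold for H3K4me3 too, although those libraries are called biological replicates. A figure legend of the paper names 2 mice for the colon ChIP instead. The HCT116 cells are 1 line, and the RNA and the chromatin came from separate extractions, so RNA and peak values cannot be matched library by library. No sort of the colon cells is described, and in colon fewer cells with a transcript and less of it per cell cannot be told apart.

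HCT116 RNA libraries held 35608533 to 53415604 gene counts and colon RNA libraries 8166406 to 10707901. Replicate 3 of both HCT116 treatments stood apart from the other 6 RNA libraries. Mitochondrial genes took 9.28% and 10.3% of its counts, against 1.57% to 3.19% elsewhere, and the 100 most abundant genes took 28.5% and 29.8%, against 19.3% to 20.2%. Epithelial markers (EPCAM, CDH1, keratins, CDX2, VIL1) summed to 3624 to 5676 CPM (counts scaled to the library's total) in HCT116 cells and to 8145 to 9663 CPM in colon. In colon, immune markers summed to 34.5 to 54.5 CPM and stromal and endothelial markers to 27.4 to 35.4 CPM, with Pdgfra at 0 counts in all 3 libraries. In HCT116 cells, immune markers summed to 5.52 to 11.9 CPM, and stromal and endothelial markers to 8.85 to 11.3 CPM with DMSO and 18.4 to 21.2 CPM with MS275, 2 ranges that did not overlap, and their part in the results below was not tested.

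The promoters of the 4 human genes are shown because each carried a peak in HCT116 cells. The sequences run 5′ to 3′ on the strand of the gene, from 250 bases before to 50 bases after the RefSeq start (GRCh38.p14). Capitals mark matches on either strand to any of 6 short motifs, which were the GC box GGGCGG, the CCAAT box CCAAT, the TATA box TATAAA, the ETS motif CCGGAAG, the CRE core TGACGT and the E-box CACGTG.

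HDAC1, chr1:32291833-32292132, plus strand: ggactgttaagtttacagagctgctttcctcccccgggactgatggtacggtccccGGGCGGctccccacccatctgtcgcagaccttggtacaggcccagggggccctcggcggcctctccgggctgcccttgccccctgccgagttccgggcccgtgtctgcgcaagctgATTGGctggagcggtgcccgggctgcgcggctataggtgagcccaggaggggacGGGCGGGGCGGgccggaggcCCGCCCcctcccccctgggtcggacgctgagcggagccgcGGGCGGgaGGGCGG

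HDAC2, chr6:113971099-113971398, minus strand: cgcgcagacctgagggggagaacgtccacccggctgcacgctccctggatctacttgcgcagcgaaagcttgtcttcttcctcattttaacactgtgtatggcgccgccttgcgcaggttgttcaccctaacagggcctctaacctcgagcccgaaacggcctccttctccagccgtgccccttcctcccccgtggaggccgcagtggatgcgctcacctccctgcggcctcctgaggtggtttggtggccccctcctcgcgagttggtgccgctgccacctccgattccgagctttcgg

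HDAC3, chr5:141636800-141637099, minus strand: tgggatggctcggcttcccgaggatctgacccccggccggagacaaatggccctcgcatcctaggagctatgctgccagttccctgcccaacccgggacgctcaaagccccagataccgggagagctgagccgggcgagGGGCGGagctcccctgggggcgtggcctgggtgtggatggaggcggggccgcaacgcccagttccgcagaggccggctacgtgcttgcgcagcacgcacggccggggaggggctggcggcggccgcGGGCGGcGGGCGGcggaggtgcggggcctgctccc

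HDAC8, chrX:72572794-72573093, minus strand: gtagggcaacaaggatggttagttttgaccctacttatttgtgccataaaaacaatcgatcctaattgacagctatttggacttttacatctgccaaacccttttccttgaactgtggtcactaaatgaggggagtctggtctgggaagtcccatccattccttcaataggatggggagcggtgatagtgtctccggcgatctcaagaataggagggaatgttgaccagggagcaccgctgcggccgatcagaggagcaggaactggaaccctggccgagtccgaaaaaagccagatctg

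The 4 promoters differed in composition. HDAC1 held 6 matches to the GC box, of which 2 overlapped by their end bases, and 1 CCAAT box read on the opposite strand, 78 bases before the start. HDAC3 held 3 GC boxes, and the letters of the 6 motifs did not occur in the windows of HDAC2 and HDAC8. Of 35116 RefSeq promoters of the same length, 45.0% held a GC box, 34.6% a CCAAT box, 11.5% a TATA box, 10.3% the ETS motif, 7.98% the CRE core and 7.26% the E-box. G and C made up 73.7% of the bases in HDAC1, 64.0% in HDAC2, 74.0% in HDAC3 and 49.3% in HDAC8, where the median promoter had 58.7%. The number of CpG dinucleotides was 28, 24, 31 and 9 in the same order, with a median of 14 over all promoters. HDAC8 was thus the member with the fewest CpG. The windows of HDAC1, HDAC2 and HDAC3 lay wholly inside a peak of the HCT116 list, and 207 of the 300 bases of the HDAC8 window did.

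In GRCh38 the genes are HDAC1 (ENSG00000116478, chr1:32292086-32333635, plus strand), HDAC2 (ENSG00000196591, chr6:113933028-114011308, minus strand), HDAC3 (ENSG00000171720, chr5:141620876-141636870, minus strand) and HDAC8 (ENSG00000147099, chrX:72329516-72573103, minus strand). The RNA level of each member was read first, since levels between genes can be compared only per length. In DMSO-treated HCT116 cells, the level per kb of all annotated exons was 81.3 ± 13.6 CPM per kb for HDAC1, 19.8 ± 1.58 for HDAC3, 15.2 ± 2.81 for HDAC2 and 0.603 ± 0.232 for HDAC8 (SD, n = 4). The libraries of neighbouring genes in this order did not overlap, with 64.5 to 95.3 CPM per kb for HDAC1, 18.0 to 21.7 for HDAC3, 11.2 to 17.4 for HDAC2 and 0.315 to 0.815 for HDAC8. With MS275 the order was the same, at 86.2 ± 16.8, 22.1 ± 2.30, 14.6 ± 3.06 and 0.586 ± 0.136 CPM per kb, again without overlap between neighbours. Among the 14666 protein-coding genes with a count, the DMSO levels stood at the 96.9th percentile for HDAC1, the 85.4th for HDAC3, the 81.3rd for HDAC2 and the 29.7th for HDAC8.

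The place of HDAC2 in this order depended on the length used. Its annotated exons add up to 15333 bp, of which 1464 bp are coding, and those of HDAC8 to 22888 bp, of which 1131 bp are coding, whereas HDAC1 has 3966 and 1446 bp and HDAC3 4610 and 1284 bp. Per kb of coding sequence, HDAC2 stood above HDAC3, at 159 ± 29.5 against 71.2 ± 5.67 CPM per coding kb in DMSO (SD, n = 4). On this scale the ranges of HDAC1 (177 to 261) and HDAC2 (117 to 183) overlapped, and HDAC8 stayed lowest at 12.2 ± 4.69. By its mean, HDAC1 was the highest and HDAC8 the lowest of the members in HCT116 cells under each of the 3 lengths tried, which included the longest transcript.

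In colon epithelium Hdac3 led. Its level per kb of exons was 22.3 ± 1.04 CPM per kb, followed by Hdac1 at 18.5 ± 1.29, Hdac2 at 13.9 ± 0.577 and Hdac8 at 2.95 ± 0.552 (SD, n = 3 mice). The ranges of neighbours did not overlap on this scale. The counts behind these levels were 778, 933 and 865 for Hdac3, 528, 633 and 659 for Hdac1, 507, 691 and 576 for Hdac2, and 115, 125 and 165 for Hdac8. Per kb of coding sequence Hdac3 was again first, at 70.5 ± 3.30 CPM per coding kb, while the ranges of Hdac1 (40.9 to 47.0) and Hdac2 (40.6 to 44.1) overlapped. Per kb of the longest transcript Hdac1 (31.4 ± 2.19) came before Hdac3 (25.2 ± 1.18). Human and mouse values came from tables counted separately and were not compared by a test.

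**Figure D1:**
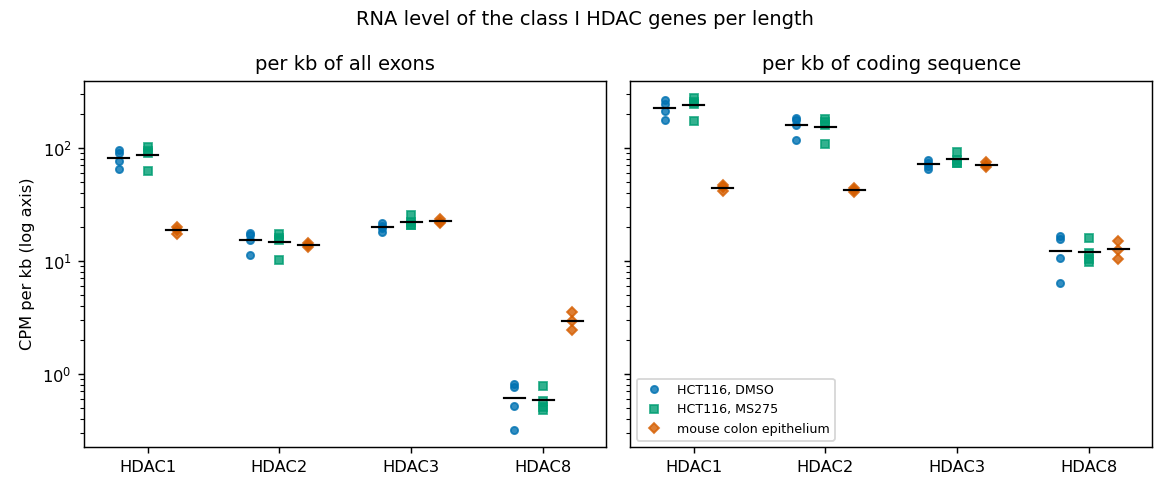
RNA level of each member in CPM per kb on a log axis, per kb of all exons (left) and per kb of coding sequence (right). Each point is 1 library, black lines are means. HDAC8 is the lowest in every group, and HDAC2 lies below HDAC3 in HCT116 cells on the left and above it on the right.

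Whether MS275 changed the RNA of the members was asked next. No member (0 of 4) was called, either by edgeR without the replicate number, which called 1 of 14961 genes (0.00668%, with 987 at an unadjusted p under 0.05), or with the replicate number as a block, which called 2151 (14.4%, of which 7.83% of all genes higher and 6.55% lower with MS275, with 4375 at an unadjusted p under 0.05). A gene was called at a Benjamini-Hochberg adjusted p under 0.05. Same-numbered libraries deviated together, so both fits are given for the members. Without replicate 3 in both treatments the log2 change with the block was 0.09 for HDAC1, -0.07 for HDAC2, 0.10 for HDAC3 and -0.22 for HDAC8, and again none (0) was called (edgeR, adjusted p 0.340 to 0.531).

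HDAC1 had 304, 353, 256 and 378 CPM in DMSO replicates 1 to 4 and 355, 367, 246 and 400 CPM with MS275. The treatments overlapped, replicate 3 was the lowest in each, and MS275 was the higher in 3 of 4 pairs. The log2 change was 0.07 (95% interval -0.27 to 0.40), and 0.06 (-0.07 to 0.19) with the block, which is a fold of 1.04 (0.954 to 1.14). Its adjusted p was 0.981 without and 0.539 with the block (edgeR).

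HDAC2 had 234, 257, 171 and 267 CPM with DMSO and 231, 263, 156 and 245 CPM with MS275. Replicate 3 was again lowest in both treatments, which overlapped. The log2 change was -0.07 (-0.43 to 0.28), or -0.08 (-0.21 to 0.06) with the block, and the adjusted p 0.981 and 0.464 (edgeR). Counts of HDAC1 exceeded those of HDAC2 in all 8 libraries, by 1.30 to 1.49 times with DMSO and 1.397 to 1.63 times with MS275. These ranges overlapped, while the ratio was higher with MS275 in 4 of 4 pairs, a difference that was not tested.

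HDAC3 had 93.8, 88.9, 100 and 83.0 CPM with DMSO and 94.3, 101, 117 and 94.7 CPM with MS275. Here replicate 3 was the highest library of both treatments. After TMM scaling, MS275 was the higher in 3 of 4 pairs, and the log2 change was 0.14 (-0.27 to 0.56), or 0.14 (-0.03 to 0.30) with the block, with an adjusted p of 0.960 and 0.268 (edgeR). Without MS275 replicate 3 the log2 change was -0.01.

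HDAC8 had the fewest counts, from 282 to 996, and the widest spread. It had 11.9, 17.5, 7.22 and 18.6 CPM with DMSO and 13.2, 11.01, 11.6 and 17.8 CPM with MS275. The pairs did not share a direction, with a log2 change of -0.66 in replicate 2 and 0.68 in replicate 3. The log2 change over all libraries was -0.03 (-0.64 to 0.57), or 0.01 (-0.42 to 0.43) with the block (edgeR, adjusted p 0.996 and 0.989), so a change of up to 1.35-fold upward or down to 0.746-fold lay within the interval of the blocked fit.

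**Figure D2:**
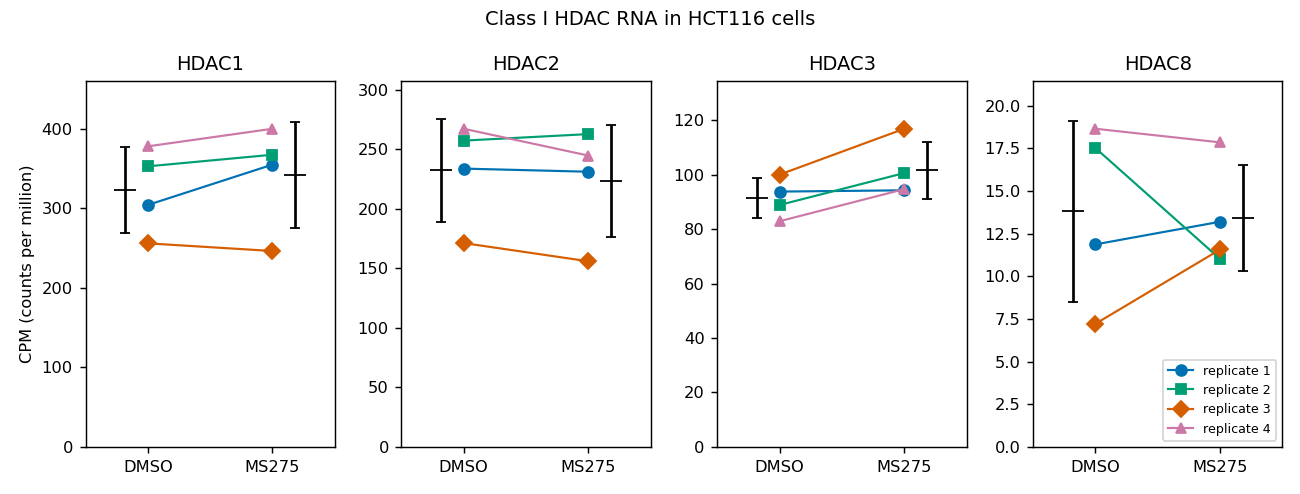
CPM of each member per HCT116 library, with lines joining libraries of the same replicate number and black bars giving mean and SD (n = 4). HDAC1 and HDAC2 are lowest and HDAC3 highest in replicate 3 of both treatments, and the treatments overlap in every panel.

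The spread between replicates was lowest for HDAC1 and highest for HDAC8. The SD within treatments on the log2 scale was 0.16 for HDAC1, 0.20 for HDAC2, 0.25 for HDAC3 and 0.41 for HDAC8, against a median of 0.42 over all genes tested. Among genes of like level the median SD was 0.26, 0.27, 0.29 and 0.39 in the same order, and the members stood at the 20.7th, 28.04th, 38.9th and 53.8th percentile. Across the 8 libraries, which include the 2 libraries that stood apart, log2 CPM of HDAC1 and HDAC2 had a Pearson r of 0.80, HDAC1 and HDAC3 one of -0.83 and HDAC2 and HDAC3 one of -0.93. The genes whose pattern across these 8 libraries was most like that of HDAC1 were ARCN1, TTC17 and ACVR1B (r = 0.992, 0.991 and 0.989). They were IARS2, AP1AR and SMAD1 for HDAC2 (0.988, 0.988 and 0.986), CKB, RHPN1 and RHOF for HDAC3 (0.992, 0.990 and 0.989), and TEAD3, LYRM7 and MRRF for HDAC8 (0.976, 0.962 and 0.961). Of 12092 genes compared, r was over 0.9 for 679 with HDAC1, 434 with HDAC2, 352 with HDAC3 and 15 with HDAC8.

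Genes known to respond to HDAC inhibitors were read beside the members. H1F0, the linker histone H1.0, had 506, 584, 417 and 529 CPM with DMSO and 769, 693, 625 and 655 CPM with MS275, with no overlap. Its log2 change with the block was 0.42 (SE 0.07, adjusted p = 0.00197 by edgeR). CDKN1A, which encodes the cell cycle inhibitor p21, had 155, 187, 201 and 209 CPM with DMSO and 213, 221, 260 and 228 CPM with MS275, also without overlap. After TMM scaling its treatments overlapped, and its log2 change with the block was 0.28 (SE 0.07, adjusted p = 0.0167 by edgeR), a call lost without replicate 1 or 2 (adjusted p 0.0785 and 0.0763). Neither gene was called without the block (adjusted p 0.505 and 0.870). The actin-binding protein gene GSN was called in neither fit (log2 change 0.21 with the block, adjusted p = 0.117, and 0.977 without it, by edgeR), and TXNIP had too few counts to be tested.

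Genes of complexes that hold members of the class were read in both fits. Without the block 0 genes of the lists described here were called, whereas with it, where 7.83% of all genes tested rose and 6.55% fell, 1 of 9 NuRD genes rose and 2 fell. GATAD2B, a zinc finger subunit, rose by 0.37 on the log2 scale, while the methyl-CpG-binding-domain protein MBD3 fell by 0.47 and MTA2 fell by 0.39. Of the 14 Sin3, 9 CoREST, 3 MiDAC and 7 sirtuin genes tested, 0 were called, where 14.4% of all genes were called in either direction. Against the same 14.4%, 2 genes were called in each of the next 2 lists. Among the 7 class II and IV deacetylases HDAC5 rose (0.32) and HDAC7 fell (-0.46), and among the 9 histone acyltransferases, the enzymes that add the acyl groups, KAT2A fell (-0.66) and KAT6B fell (-0.54). The adjusted p of these genes was between 0.00114 and 0.0445 with the block (edgeR), and each moved the same way in 4 of 4 pairs. The median log2 change with the block was -0.16 in the NuRD list, -0.15 in the acyltransferases, -0.07 in the Sin3 list, 0.02 in the CoREST list and 0.03 over the members, against 0.0081 over all genes tested. Of 7 epithelial markers tested, 4 rose with the block, led by CDH1 (0.74) and KRT19 (0.37), and 2 fell, CDX2 (-0.44) and EPCAM (-0.22), beside the 7.83% of all genes that rose and the 6.55% that fell. Of 4 stromal and endothelial markers tested, 1 rose, the collagen gene COL1A1 (0.92), and of 3 immune markers 0 were called. None of the lists was tested as a set.

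ChIP-seq showed where the 2 marks of lysine 18 stood on these genes. The HCT116 list was 1 set of peaks for both marks and treatments, and each member had 2 peaks in it. A peak covered the principal start of HDAC1 (chr1:32289901-32293200), HDAC2 (chr6:113969401-113972250), HDAC3 (chr5:141635251-141639000) and HDAC8 (chrX:72572401-72573000) in GRCh38, each overlapping an exon. A start of RELL2 also lay in or within 1 kb of the HDAC3 promoter peak, and one of a gene without a symbol in or within 1 kb of the HDAC8 promoter peak. The second peak of HDAC1 (chr1:32334751-32337750) lay 1116 bp past the gene, and that of HDAC3 (chr5:141617401-141620100) lay 776 bp past the gene. A start of MARCKSL1 lay in or within 1 kb of the former, and a start of DIAPH1 in or within 1 kb of the latter. Below, also for colon, such peaks are described as over these starts. The second peaks of HDAC2 (chr6:113994901-113999100) and HDAC8 (chrX:72554251-72554850) overlapped no exon and no start, and lay in introns. The one in HDAC2 was upstream of the principal start, within a longer annotated isoform.

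The promoter peak of HDAC8 held the fewest reads of the promoter peaks. In DMSO libraries its promoter peak held 13.9 to 20 scaled reads of H3K18cr and 21.5 to 23.2 of H3K18ac (reads multiplied by 1 factor per library), against 150 to 239 and 126 to 372 at the promoters of HDAC1, HDAC2 and HDAC3. The HDAC8 peak was also short, at 600 bp against 2850 to 3750 bp. Per kb and for H3K18cr it stood at the 29.8th percentile of all peaks, while HDAC1, HDAC2 and HDAC3 stood at the 82.0th, 91.1st and 80.6th. For H3K18ac it stood at the 61.4th percentile per kb, against the 77.5th, 94.96th and 82.7th. Over input the HDAC8 promoter was not lowest. The log2 ratio of its mean H3K18cr signal was 1.59, compared with 1.92, 1.80 and 1.56 for the promoters of HDAC1, HDAC2 and HDAC3 and a median of 1.11 over all peaks, and that of H3K18ac was 1.91, compared with 1.80, 2.18 and 1.67 and a median of 1.05. The input of the HDAC8 promoter peak had 4 reads in each treatment, so these ratios rest on few reads.

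The question of the HCT116 ChIP-seq was how MS275 changed the marks. At the members, H3K18cr was called lower with MS275 in 3 of 8 peaks and H3K18ac in 3 of 8, and none (0) was called higher. These values are reads scaled per library, so a lower value is a smaller share of the reads, not a smaller amount of the mark. The paper reports that MS275 raised histone crotonylation in western blots and H3K18cr in ChIP-qPCR of selected promoters. Amounts of the marks at the members were not measured. Among all peaks tested, limma on the deposited log2 values called 23.4% lower for H3K18cr (9228 of 39399) and 16.6% lower for H3K18ac (6549 of 39479). The deposited values were lower in sum with MS275. Scaled H3K18cr reads in all peaks were 4946115 to 5730094 with DMSO and 3902023 to 4338122 with MS275, and those of H3K18ac were 4462392 to 6594160 and 3612598 to 4531232. After TMM scaling, which sets the bulk of the peaks equal between libraries, 1 of 8 members was called lower for H3K18cr (11.3% of all peaks), and 3 of 8 for H3K18ac (16.8%). No promoter peak of a member was among these calls. edgeR on recovered reads with TMM gave the same counts of members, 1 (11.5% of all peaks) and 3 (16.8%). The counts on deposited values turned on single replicates, with 1, 0 and 6 members called for H3K18cr without replicate 1, 2 and 3, and 6, 0 and 0 for H3K18ac. The calls over all peaks moved with them, at 2906, 2072 and 15131 for H3K18cr and 11900, 1 and 869 for H3K18ac.

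**Figure D3:**
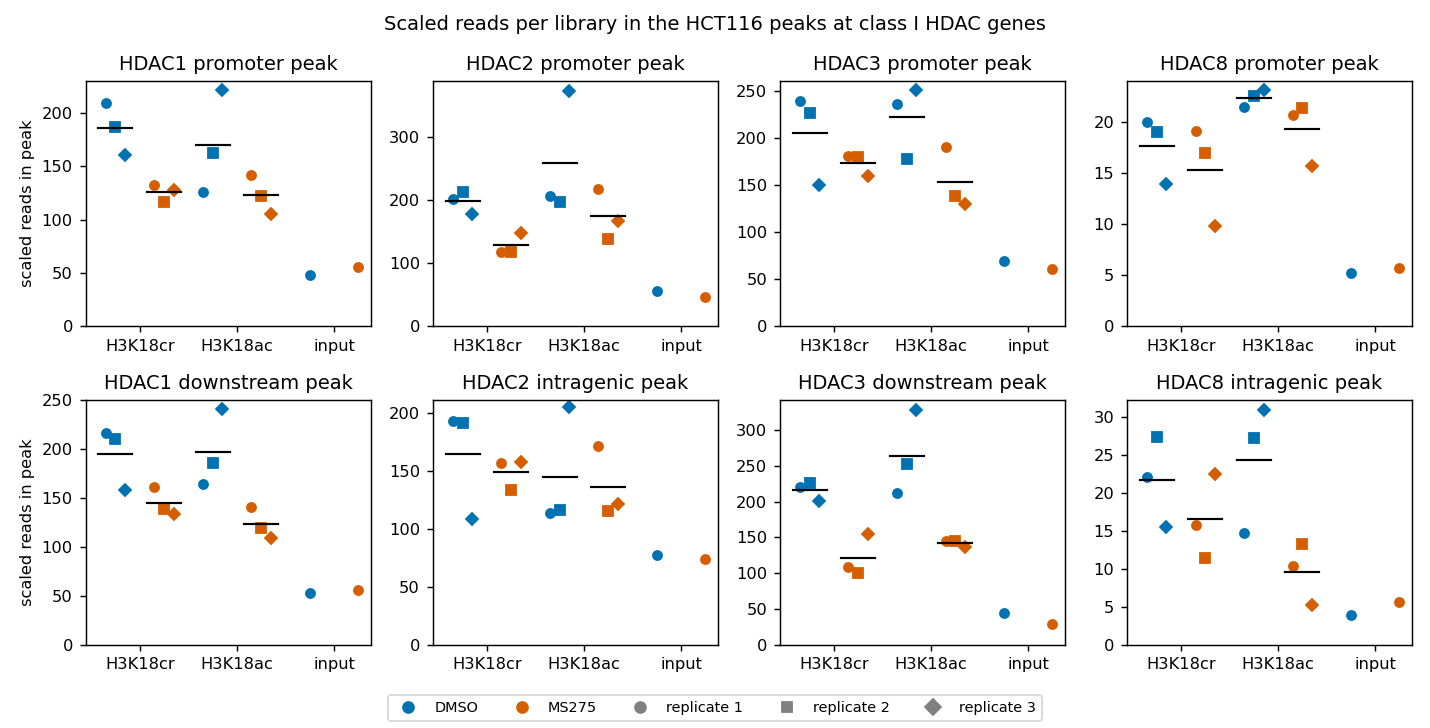
Scaled reads of each HCT116 library in the 8 peaks at class I HDAC genes, by mark and treatment, with black lines at the mean of 3 libraries. Only the downstream HDAC3 peak has every MS275 library below every DMSO library in both marks, and the HDAC8 panels have few reads.

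The peak over the DIAPH1 start downstream of HDAC3 was the single member called in both marks. It held 220, 227 and 201 scaled H3K18cr reads in DMSO replicates 1 to 3 and 109, 101 and 154 with MS275, and 212, 253 and 328 against 145, 145 and 137 for H3K18ac. The treatments did not overlap in either mark, as in 30.3% and 23.4% of all peaks, where MS275 lay above DMSO throughout in 3.1% and 3.27%. The log2 change was -0.86 for H3K18cr (95% interval -1.22 to -0.49, adjusted p = 0.000595 by limma) and -0.87 for H3K18ac (-1.37 to -0.37, adjusted p = 0.00742). The call held after TMM scaling in both marks (log2 change -0.62 each, limma adjusted p 0.0108 and 0.000347).

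That peak also had fewer input reads with MS275, 28.3 scaled reads against 44.3 with DMSO, from 1 library each. As a log2 ratio to the input of the same treatment, H3K18cr was 2.16 to 2.33 with DMSO and 1.79 to 2.41 with MS275, and H3K18ac was 2.23 to 2.86 and 2.24 to 2.32, ranges that overlapped. The H3K18cr call was lost without replicate 2 (log2 change -0.70, limma adjusted p = 0.1001). The H3K18ac call was lost without replicate 2 (log2 change -0.90, limma adjusted p = 0.485) or replicate 3 (-0.67, adjusted p = 0.194). RNA of DIAPH1, an actin-nucleating formin, was called in neither fit (log2 change 0.07 with the block, edgeR adjusted p = 0.501, and 0.986 without it).

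The promoter of HDAC1 held 209, 187 and 161 scaled H3K18cr reads with DMSO and 133, 116 and 128 with MS275, without overlap. The log2 change of -0.56 (-0.91 to -0.21) was called on the deposited values (limma, adjusted p = 0.0148), and after TMM scaling it was -0.32 and not called (adjusted p = 0.131). As a log2 ratio to input it was 1.72 to 2.09 with DMSO and 1.06 to 1.25 with MS275, which did not overlap. H3K18ac at this promoter was 126, 163 and 221 scaled reads with DMSO and 142, 122 and 105 with MS275, which overlapped, and was not called (log2 change -0.44, adjusted p = 0.263). Its log2 change was -0.75 and called without replicate 1 (limma adjusted p = 0.0188), and -0.12 without replicate 3 (adjusted p = 0.917).

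The promoter of HDAC2 was also called for H3K18cr on the deposited values. It held 202, 213 and 178 scaled H3K18cr reads with DMSO and 118, 118 and 147 with MS275, without overlap, and the log2 change was -0.63 (-0.98 to -0.29, limma adjusted p = 0.00571). After TMM scaling it was -0.40 (adjusted p = 0.0630, not called), and as a log2 ratio to input the treatments overlapped, at 1.65 to 1.91 with DMSO and 1.357 to 1.68 with MS275. Without replicate 1 or replicate 2 neither the HDAC1 nor the HDAC2 promoter was called for H3K18cr, with adjusted p between 0.161 and 0.307 (limma). The log2 changes without replicate 1 and without replicate 2 were -0.51 and -0.49 for HDAC1, and -0.56 and -0.52 for HDAC2. H3K18ac at the HDAC2 promoter was 206, 196 and 372 scaled reads with DMSO and 217, 139 and 167 with MS275, where DMSO replicate 3 was the highest, and was not called (log2 change -0.53, adjusted p = 0.153). Here too the change was larger and called without replicate 1 (-0.83, limma adjusted p = 0.00698), and smaller without replicate 3 (-0.21, adjusted p = 0.820).

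With all libraries, the promoters of HDAC3 and HDAC8 were called in neither mark. HDAC3 held 239, 227 and 150 scaled H3K18cr reads with DMSO and 181, 180 and 160 with MS275, and 237, 178 and 251 against 191, 139 and 130 for H3K18ac, and the treatments overlapped in both marks. Its log2 change was -0.21 (-0.58 to 0.15) and -0.54 (-1.04 to -0.04), with limma adjusted p of 0.469 and 0.140. It was called for H3K18cr without replicate 3 (log2 change -0.37, adjusted p = 0.0109) and for H3K18ac without replicate 1 (-0.66, adjusted p = 0.0430). RNA of RELL2, which has a start at or near this peak, was called in neither fit (log2 change 0.35 with the block, edgeR adjusted p = 0.345, and 0.915 without it). At HDAC8 the log2 changes were -0.25 (-0.98 to 0.49) and -0.23 (-0.86 to 0.40), with limma adjusted p of 0.723 and 0.750, from 7 to 20 reads per library.

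Of the remaining peaks, 1 outside and 1 inside a gene were called for H3K18ac and not for H3K18cr. Over the MARCKSL1 start past HDAC1, H3K18cr was 216, 210 and 158 scaled reads with DMSO and 161, 139 and 133 with MS275 and was not called (log2 change -0.42, adjusted p = 0.0766 by limma), while H3K18ac was 164, 186 and 241 against 140, 119 and 109 and was called (log2 change -0.67, adjusted p = 0.0488). RNA of MARCKSL1, a regulator of actin, fell by 0.32 on the log2 scale with the block (edgeR adjusted p = 0.00981) and was not called without it (adjusted p = 0.828). The peak inside HDAC8 fell in H3K18ac from 14.7, 27.1 and 30.9 scaled reads to 10.4, 13.2 and 5.24 (log2 change -1.37, -2.14 to -0.59, limma adjusted p = 0.00678), from 5 to 24 reads per library. Its H3K18cr log2 change was -0.40 (-1.11 to 0.30, adjusted p = 0.482). The H3K18ac calls over MARCKSL1 and inside HDAC8 were lost without replicate 2 (adjusted p 0.603 and 0.423) or replicate 3 (log2 changes -0.44 and -0.77, adjusted p 0.511 and 0.494). In DESeq2 the peak over MARCKSL1 was not called (adjusted p 0.0611), and the peak inside HDAC8 got no adjusted p and so was not called either. Without replicate 3, H3K18cr over MARCKSL1 was called (log2 change -0.51, limma adjusted p = 0.000523). With all libraries the intronic peak of HDAC2 was called in neither mark, at a log2 change of -0.10 for H3K18cr and -0.05 for H3K18ac, and both values were above 0 after TMM scaling (0.14 and 0.19). Without replicate 3 its H3K18cr was called lower (-0.41, limma adjusted p = 0.00840).

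**Figure D4:**
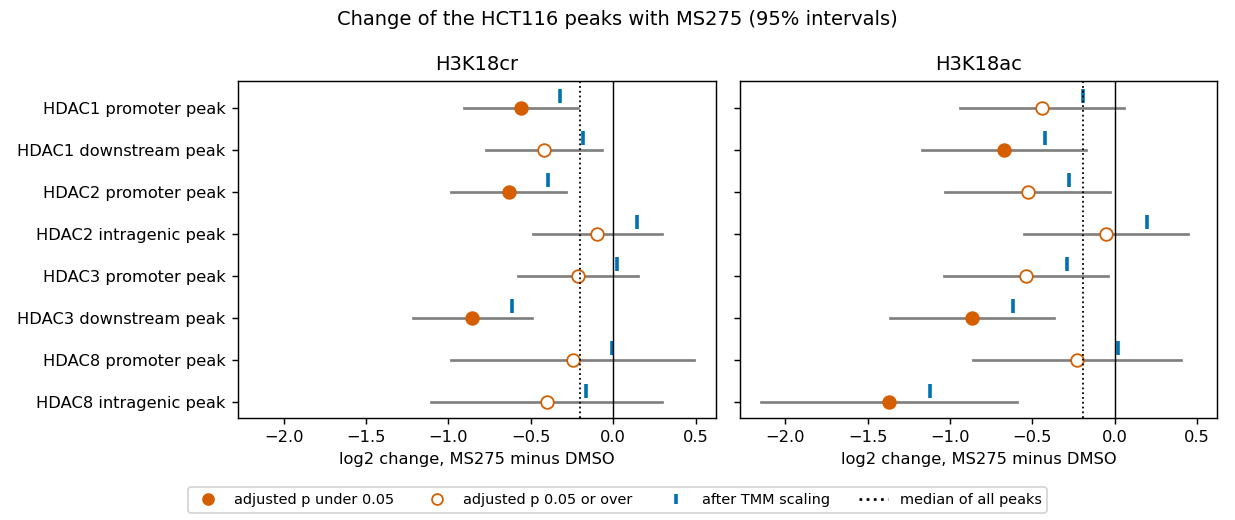
Log2 change of each member peak with MS275, with 95% intervals (limma, n = 3 per treatment). Filled circles are called on the deposited values, blue ticks give the change after TMM scaling and dotted lines the median of all peaks, -0.20 for H3K18cr and -0.19 for H3K18ac.

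Read against all peaks, the members had a median log2 change of -0.41 in H3K18cr and -0.53 in H3K18ac, where all peaks tested had -0.20 and -0.19. Most member peaks lie at gene starts, where the paper reports a relative decrease of both marks with MS275. The members were not compared with other peaks at gene starts, so the lower medians are not shown to be particular to these genes. After TMM scaling the medians were -0.18 and -0.29 for the members and 0.04 and 0.06 for all peaks, since in limma this scaling moves every peak of a mark by the same amount. The change of H3K18cr was also tested against that of H3K18ac. No peak (0 of 40237) was called by limma for this difference, with 736 at an unadjusted p under 0.05, and no member was among these. At the promoters the H3K18cr change minus the H3K18ac change was -0.12 (-0.72 to 0.49) for HDAC1, -0.11 (-0.73 to 0.52) for HDAC2, 0.33 (-0.28 to 0.93) for HDAC3 and -0.02 (-0.95 to 0.92) for HDAC8 on the log2 scale. It was 0.25 (-0.34 to 0.84) over the MARCKSL1 start and 0.96 (-0.11 to 2.04) inside HDAC8, the peaks called for H3K18ac and not for H3K18cr. These intervals leave room for differences of over 0.5, so the marks were not shown to change alike.

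In colon epithelium every member had a peak of H3K18cr and of H3K4me3 at or within 159 bp of its start (GRCm38). The 3 genes with more RNA carried wider H3K4me3 peaks, of 1800 bp at Hdac1, 2100 bp at Hdac2 and 2400 bp at Hdac3, than Hdac8 at 1050 bp. The peaks over the starts of Marcksl1, past Hdac1, and Diaph1, past Hdac3, were present in both marks as in HCT116 cells. A further H3K18cr peak lay 1038 bp upstream of Hdac1. With 2 to 3 libraries and no second condition, no test was made.

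Of the promoter peaks, that of Hdac2 had the most H3K18cr reads in both libraries and the highest H3K4me3 ratio to input in all 3. Its H3K18cr peak held 221 and 329 scaled reads, with 56.0 and 76.3 in the input of the same number, a log2 ratio of 1.96 and 2.09 where the median of all peaks was 1.31. For H3K4me3 it held 225, 383 and 579 scaled reads against 45.0 in the input, a log2 ratio of 2.30, 3.06 and 3.66, at the 89.9th percentile of all peaks.

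The rank of the Hdac1 promoter differed between libraries. It held 76.3 and 178 scaled H3K18cr reads with 42.0 and 53.4 in the inputs, a log2 ratio of 0.85 and 1.72, and 106, 211 and 289 of H3K4me3 with 48.0 in the input, a log2 ratio of 1.123, 2.12 and 2.57. By its mean ratio it stood at the 47.2nd percentile for H3K18cr, from the 18.4th in replicate 1 and the 71.1st in replicate 2, and at the 59.1st for H3K4me3, from the 36.3rd, 60.4th and 63.5th. The peak upstream of it had a higher H3K18cr ratio in both replicates, 1.61 and 1.85.

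At the Hdac3 promoter the H3K18cr libraries disagreed. H3K18cr held 42.9 and 61.6 scaled reads with 15.0 and 36.6 in the inputs, a log2 ratio of 1.46 and 0.73, at the 76.7th percentile in replicate 1 and the 2.04th in replicate 2 (23.1st by the mean ratio), and its peak lay over the Rell2 side of the start. H3K4me3 held 175, 401 and 488 with 53.0 in the input, a log2 ratio of 1.70, 2.90 and 3.18 and the 78.5th percentile. Hdac3 was the member with the most RNA per kb of exons in colon, while its H3K18cr ratio was below that of Hdac2 in both libraries.

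Hdac8 had the fewest reads here too. Its H3K18cr peak of 300 bp held 23.9 and 30.8 scaled reads with 2.00 and 12.2 in the inputs, and the log2 ratios of 3.05 and 1.27 therefore rest on few input reads. With 10 instead of 1 scaled read added, the mean ratio moved from 2.16 to 1.19. H3K4me3 held 39.1, 88.3 and 57.9 scaled reads with 19.0 in the input, a log2 ratio of 1.00, 2.16 and 1.56.

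**Figure D5:**
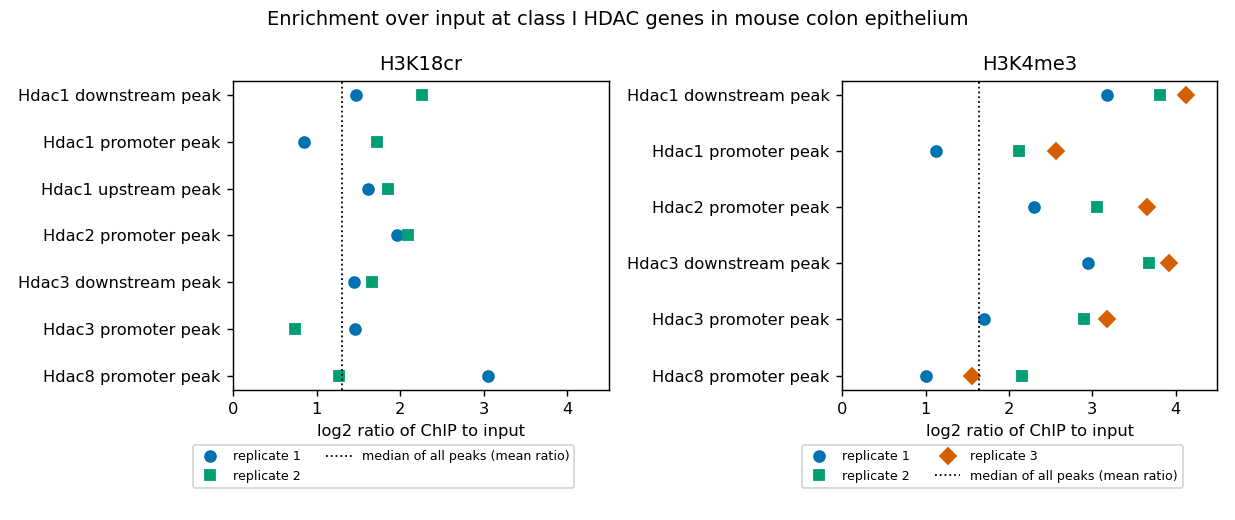
Log2 ratio of ChIP to input (1 scaled read added) at the member peaks of mouse colon epithelium, with 1 symbol per library. Dotted lines mark the median of all peaks, 1.31 for H3K18cr and 1.65 for H3K4me3, and the peaks over the Marcksl1 and Diaph1 starts have the highest H3K4me3 ratios.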

How the data were processed

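RNA-seq was measured in HCT116 cells and mouse colon epithelium, and ChIP-seq of histone marks in the same sources. The study's methods name 2 replicates for HCT116 H3K18cr, the labels give 3, and 3 were used. The RNA-seq tables hold read counts per gene as the authors deposited them, not normalized, after trimming with Trim Galore, mapping with HiSat2 and quantitation of uniquely mapped reads in SEQMONK. These steps are stated for mouse, the submitters' processing notes name TopHat2 2.0.12 and Bowtie2 2.2.5, and the strand setting is not given in the sources used here, so reads of overlapping or antisense genes cannot be told apart. Genes were matched by probe name and coordinates, since the ID column names an overlapping gene for HDAC3 and mouse Hdac8. The deposited colon peak tables hold a signal per peak, reads multiplied by 1 factor per library, and the deposited HCT116 peak table holds the log2 of such values, with 0.9 read in place of 0. Duplicates were removed and MACS peaks were called once per table in SEQMONK, so replicates cannot be compared by presence of a peak. In the peak tables values came out as whole reads within 0.02 read once divided by the factor of their library, apart from the 0.9 set in place of 0. No column was left unmapped.

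HCT116 genes were tested with edgeR 4.0.16 (quasi-likelihood, TMM, filterByExpr) in R 4.3.3, and peaks with at least 10 reads in 3 libraries with limma 3.58.1 (trend), with Benjamini-Hochberg adjustment over all genes or peaks. All tests were two-sided. DESeq2 1.42.0, TMM scaling, edgeR on recovered reads and leaving out replicates were alternatives, and edgeR and limma were tested on simulated data. Deviations of same-numbered RNA libraries from their group means correlated at 0.226, 0.151, 0.433 and 0.460, each over 0.1, so the numbers were treated as pairs, although replicate 2 correlated better with another number. The pairing comes from the data, as the labels give only the numbers. Gene lengths are from GENCODE. Members, lists and tests were chosen with earlier results of these data known. The named genes are the members, the HDAC inhibitor response list, up to 2 called rises and 2 falls per other list, and the 3 genes most correlated with each member. The list for 1 corepressor complex is not reported here. Intervals cover the spread between libraries, and p-values measure only the spread between these samples.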

Additional observations from a re-analysis of the deposited data

Results flagged for a closer look

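In the HCT116 RNA groups of 4 libraries, 34 sets of values were checked for 1 library far from the others, and 6 were found, where chance gives about 1 in 20. All 6 were replicate 3. Its share of mitochondrial counts was 9.28% with DMSO and 10.3% with MS275, and its share of counts in the 100 most abundant genes 28.5% and 29.8%. On TMM-scaled CPM, HDAC3 with MS275 reached 133 in replicate 3, against 89.3 to 95.8 in the other replicates of MS275, and CDKN1A 295, against 205 to 215. Both genes were also highest in DMSO replicate 3 on this scale (113 and 227). On CPM from library totals neither gene stood apart by this measure. Whether the share of mitochondrial counts has a part in the HDAC3 and CDKN1A values was not tested.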

How the results depend on the processing

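With the replicate number as a block, edgeR called 2151 genes and DESeq2 2851, against 1 in edgeR without it, and HDAC8 RNA moved from a log2 change of -0.03 to 0.0059 and 1.86e-05. Without the block DESeq2 called 140 genes, edgeR with library totals 2 and without a filter 13. Leaving out 1 replicate gave 0 to 2584 genes (8 without replicate 3 in both treatments, chosen after seeing the data; with the block 968, 994, 2584 and 1037 without replicates 1 to 4). No member was called in any of these. The replicate numbers did not pair the ChIP libraries by the rule that every correlation exceed 0.1 (correlations 0.111, 0.0787 and 0.241 for H3K18cr, where each matched its own number best, and -0.207, 0.0487 and -0.136 for H3K18ac). With the block, 10667 H3K18cr peaks (26.6% of those tested lower) and 4 members were called, and 895 H3K18ac peaks (2.24% lower) and 1 member. The block ended the H3K18ac calls downstream of HDAC3 (limma adjusted p = 0.146) and HDAC1 (0.283) and added the H3K18cr call downstream of HDAC1 (0.0449).

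For H3K18cr, TMM scaling gave 5186 called peaks, edgeR 5468 and DESeq2 3384, with 1, 1 and 1 member, and leaving out 1 replicate gave 2072 to 15131 peaks and 0 to 6 members. For H3K18ac, leaving out 1 replicate gave 1 to 11900 peaks and 0 to 6 members, and DESeq2 1 member. Some log2 changes, none of them called, changed sign. Under TMM, edgeR and DESeq2 these were the HDAC2 intronic peak (H3K18ac 0.19, 0.18 and 0.18; H3K18cr 0.14, 0.10 and 0.12), the HDAC8 promoter (H3K18ac 0.019, 0.010 and 0.013; H3K18cr 0.050 and 0.060 in edgeR and DESeq2) and the HDAC3 promoter (H3K18cr 0.025, 0.0067 and 0.018).

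Leaving out replicates, the range crossed 0 for the HDAC2 intronic peak (H3K18ac -0.38 to 0.30, H3K18cr -0.41 to 0.12), the HDAC8 intronic peak (H3K18cr -0.88 to 0.027), and RNA of HDAC2 (-0.16 to 0.019), HDAC3 (-0.0083 to 0.25) and HDAC8 (-0.22 to 0.22, with the block 0.22 and 0.038 without replicates 2 and 4). The H3K18cr change minus the H3K18ac change crossed it for the peaks downstream (-0.077 to 0.47) and at the promoter (-0.55 to 0.24) of HDAC1, intronic (-0.71 to 0.39) and at the promoter (-0.60 to 0.27) of HDAC2, downstream (-0.42 to 0.25) and at the promoter (-0.031 to 0.53) of HDAC3, and intronic (-0.10 to 1.56) and at the promoter (-0.053 to 0.021, and 0.0018 under TMM) of HDAC8. The causes were not tested.

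Of the colon H3K18cr peaks, 3 lay inside the gene intervals. By coding length 2 of 4 members kept their place in DMSO and 2 in MS275, and by longest transcript 2 in colon. Few reads limit HDAC8, whose peaks held 5 to 24 reads per ChIP library. Of the values for single genes and peaks, 293 kept direction and side of the threshold or, where no test was made, moved by less than 1 SD. A further 25 levels or ratios with no test moved by 1 SD or more. Among the tested values 20 lost and 11 gained their call, and 38 changed sign, none of them called in the fit reported.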
